A study of Drosophila melanogaster with 6 samples.

Results

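The genes described here encode translation initiation factors (symbols starting with eIF), elongation factors (eEF) and aminoacyl-tRNA synthetases (an amino acid code followed by RS, with -m for enzymes of mitochondria, and the bifunctional GluProRS). They were chosen by symbol alone, each represented by its single-gene probe set with the highest mean over 6 arrays. Of 11982 genes with such a probe set, 75 met the rule, through 81 probe sets: 40 initiation factors, 5 elongation factors, 16 cytosolic synthetases and 14 mitochondrial synthetases. Another 10 genes with symbols of these kinds in RefSeq, among them eEF1alpha1, eEF2 and eIF2alpha, are not analysed here. Neither are the subunits alpha-PheRS and beta-PheRS, whose symbols fall outside the rule.

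RNA came from eye-antennal imaginal discs, larval epithelial sacs that give rise to eye, antenna and head capsule of the adult, of wandering third-instar Drosophila melanogaster of the w1118 strain grown at 25 °C. Tumour discs combined the driver ey-Gal4, active in the developing eye, with GS(2)88A8 and UAS-Dl/+. Control discs lacked ey-Gal4 and had GS(2)88A8 with UAS-Dl/+, so both genotypes carried the GS insertion and the UAS transgene of the Notch ligand Delta, and only the driver set them apart. Each genotype had 3 biological replicates, each a pool of dissected discs on 1 one-colour Affymetrix Drosophila Genome 2.0 array. With no discs of ey-Gal4 by itself, what the driver does and what the driven genes do cannot be told apart.

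Initiation factors bring the small ribosomal subunit, the initiator tRNA and the capped end of an mRNA together: eIF4E binds the cap, eIF4G and the helicase eIF4A join it, eIF3 links the mRNA complex to the small subunit, and eIF2 carries the initiator tRNA and is recharged by its exchange factor eIF2B. Elongation factors then deliver charged tRNAs and move the ribosome, and the synthetases load each tRNA with its amino acid in the cytosol or in the mitochondrion. Growing tissues such as imaginal discs use this machinery heavily.

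Values are log2 units of the deposited table, and a difference is tumour minus control. A gene was tested when its probe set reached a log2 value of 4 on at least 3 arrays, and a call is an adjusted p under 0.05 with limma over all tested probe sets. Of the 75 genes 67 passed this filter, and the other 8 were all initiation factors. The paralogues eIF3d2, eIF3f2, eIF3g2, eIF4E4, eIF4E5, eIF4E7 and eIF4H2 lay at or next to the floor of the scale, 2.17, on all 6 arrays. The eighth, eIF4E6, had 2.22 on each tumour array, against 2.30, 2.22 and 2.27 on the control arrays.

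In tumour and control alike, the array of replicate 1 differed from the remaining 4. The 18S rRNA control probe set averaged 13.1 on these 2 arrays and 8.27 on the others, and actin's 3'-minus-5' difference averaged 0.943 and 0.447. The same measure did not set control replicate 1 apart for gapdh (0.437, with 0.475 on control replicate 2) or eIF-4a (1.75, with 1.73 on control replicate 2). The replicate 1 arrays also lay lower as a whole: the median of the tested probe sets averaged 8.81 on them and 9.14 on the others. The translation genes shared this split: 57 of 67 lay lower on both replicate 1 arrays than on any other array, as did 59.9% of all 6447 tested genes. Replicate 1 minus the mean of replicates 2 and 3 had a median of -0.36 in tumour and -0.37 in control over the 67 genes. Over all genes these medians were -0.31 and -0.36. All 16 cytosolic synthetases did so, with 12 of 14 mitochondrial synthetases, 26 of 32 initiation factors and 3 of 5 elongation factors. Against the mean of replicates 2 and 3, replicate 1 of IleRS-m differed by -1.35 in tumour and -1.12 in control, that of TyrRS-m by -0.40 in tumour and -1.37 in control, and that of eIF3a by -1.10 in tumour and -0.73 in control. Whether RNA quality or ribosomal carry-over has a part in these values was not tested. A second fit that blocks on replicate number (the paired fit) is given beside the unpaired one. Deviations from the genotype means correlated at 0.794, 0.467 and 0.723 between same-number arrays, but also at 0.668 between tumour 2 and control 3 and 0.473 between tumour 3 and control 2. The arrays thus show replicate 1 apart from replicates 2 and 3, and do not show that 2 belongs with 2 and 3 with 3, and every call of the paired fit carries this limit.

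**Figure D1:**
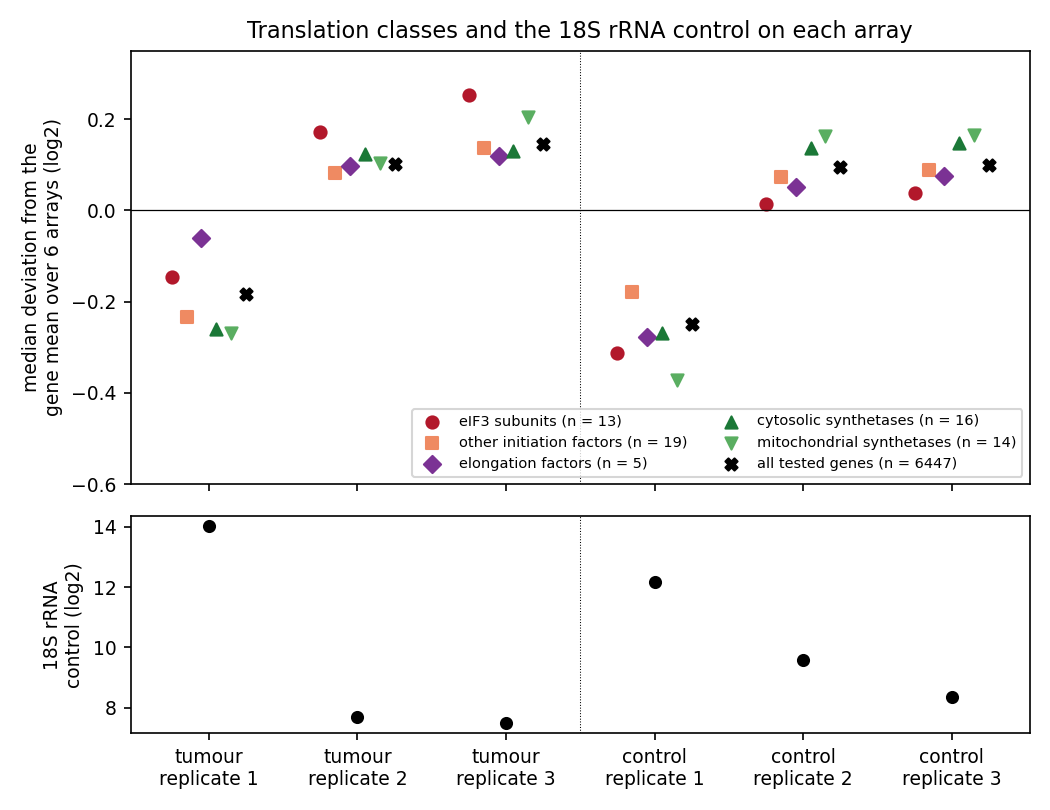
Upper panel: for each array, the median over each class of a gene's log2 value minus that gene's mean over 6 arrays, with all tested genes as black crosses. Lower panel: log2 value of the 18S rRNA control. Both replicate 1 arrays sit below 0 in every class and highest for 18S, and among replicates 2 and 3 the eIF3 subunits are the class with the widest gap between tumour (0.17 and 0.25) and control (0.01 and 0.04).

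No translation gene passed the unpaired fit, and those that passed the paired fit were 4 eIF3 subunits, eEF1alpha2 and eIF4E3. The unpaired fit called 0 of 67 genes in limma, against 0.512% of all tested genes. Its unadjusted p was under 0.05 for 2 of them, eIF4E3 and eEF1alpha2, or 2.99%, against 8.73% of all genes. The paired fit called 6, with eIF3c, eIF3e, eIF3i, eIF3l and eEF1alpha2 higher and eIF4E3 lower. That is 8.96% of the 67, near the 9.45% called among all genes (4.06% higher and 5.38% lower; 9.17% of tested probe sets), so the count as a whole says nothing particular about translation genes. With replicates 2 and 3 alone 7 genes were called, 5 higher (eIF3c, eIF3e, eIF3i, eIF3m and eIF2A) and 2 lower (eIF4E3 and eIF4G1), where all genes had 7.17% called, 2.98% higher and 4.19% lower. Genotypes did not overlap for 3 of the 67, 4.48% against 15.9% of all genes (8.72% higher and 7.2% lower): eEF1alpha2 higher, and eIF4E3 and eIF3j lower. In bulk discs, fewer cells of a type and less RNA per cell cannot be told apart.

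The class medians differed little. Initiation factors had a median difference of 0.07, elongation factors 0.04, cytosolic synthetases -0.04 and mitochondrial synthetases 0.06, beside 0.05 over all tested genes. Positive differences were found in 22 of 32 initiation factors, 4 of 5 elongation factors, 7 of 16 cytosolic synthetases and 11 of 14 mitochondrial synthetases, against 61.5% of all genes. Within initiation, the 13 tested eIF3 subunits had a median of 0.17 and the 19 other factors 0.01. This split by complex was made with the values known and has no test.

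**Figure D2:**
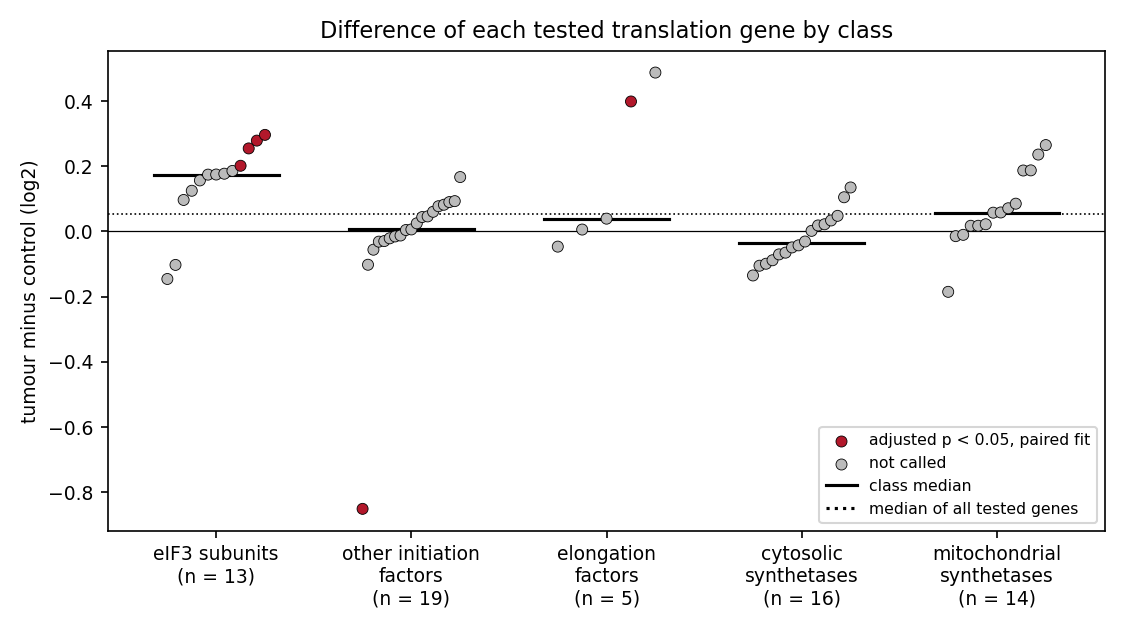
Tumour minus control difference (log2) of each of the 67 tested genes, by class, with the class median as a bar and the median of all tested genes as a dotted line; red points are called in the paired fit. The eIF3 subunits centre on 0.17, the other classes between -0.04 and 0.06, and eIF4E3 stands alone at -0.85.

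The multisubunit factor eIF3 was measured in full, with a tested probe set for each of its 13 subunits a to m (d, f and g through eIF3d1, eIF3f1 and eIF3g1). The subunit eIF3l had 12.89, 13.11 and 13.21 on tumour arrays 1, 2 and 3, against 12.50, 12.84 and 12.98 on the control arrays. The groups overlapped because of the low replicate 1 arrays, and within each replicate number tumour lay higher. Its difference was 0.30 ± 0.047 (SE of the paired fit), 1.23-fold (adjusted p = 0.029 paired, 0.77 unpaired).

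For eIF3e, the fly homologue of mammalian Int6, the values were 12.49, 12.94 and 12.94 in tumour, against 12.29, 12.57 and 12.67 in control. The difference was 0.28 ± 0.047 (SE, adjusted p = 0.033 paired, 0.85 unpaired). For eIF3c, a core subunit, they were 11.63, 12.20 and 12.18 in tumour and 11.30, 11.96 and 11.98 in control, a difference of 0.25 ± 0.047 (SE, adjusted p = 0.039 paired, 0.97 unpaired). The spread here came mainly from replicate 1, which lay at least 0.33 lower than the mean of replicates 2 and 3 in both genotypes for eIF3e and eIF3c. The WD-repeat subunit eIF3i had 13.26, 13.60 and 13.66 in tumour, against 13.10, 13.42 and 13.40 in control (0.20 ± 0.039 SE, adjusted p = 0.046 paired, 0.92 unpaired). In all 4 genes the tumour array exceeded the control array of its number 3 times of 3. In the unpaired fit these differences depended on single arrays. Without control replicate 1 they were 0.0308 for eIF3c, 0.17 for eIF3e, 0.0985 for eIF3i and 0.16 for eIF3l, and without tumour replicate 1 they were 0.44, 0.43, 0.32 and 0.39 in the same order. Leaving out tumour replicate 2 or 3 gave 0.16 or 0.17 for eIF3c, and leaving out tumour replicate 3 gave 0.13 for eIF3i.

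The other subunits were not called. Differences of 0.12 to 0.19 were measured for eIF3b, eIF3d1, eIF3f1, eIF3g1, eIF3h and eIF3m, with paired adjusted p between 0.068 and 0.11, and each was positive in all 3 pairs. The smallest positive value was that of eIF3k, 0.10 (adjusted p = 0.36 paired), with tumour lower in pair 1. So 10 of 13 subunits were positive in all 3 pairs, 76.9%, against 35.7% of all genes. The share was 73.5% among 34 tested cytoplasmic ribosomal protein genes, so this trait was not particular to eIF3. The paired fit called 4 of 13 subunits higher and 0 lower, 30.8%, against 4.06% higher and 5.38% lower among all genes. The unadjusted paired p was under 0.05 for 11 of 13, eIF3j on the lower side among them, against 30.0% of all genes in either direction. The median SE of the paired fit was 0.047 for these subunits and 0.083 for all genes. A difference of a given size thus passed more readily here, and its part in these shares was not tested.

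Opposite signs were found for eIF3j and eIF3a. The loosely bound subunit eIF3j had 11.31, 11.37 and 11.41 in tumour, against 11.45, 11.57 and 11.51 in control. All 3 tumour values lay below all 3 control values, by 0.15 ± 0.045 on average (SE, adjusted p = 0.12 paired, 0.77 unpaired), and replicate 1 was low by only 0.08 to 0.09. The scaffold subunit eIF3a had 11.12, 12.18 and 12.26 in tumour and 11.47, 12.29 and 12.10 in control. Its pairs differed in sign, from -0.35 in pair 1 to 0.15 in pair 3 (mean -0.10, adjusted p = 0.53 paired).

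**Figure D3:**
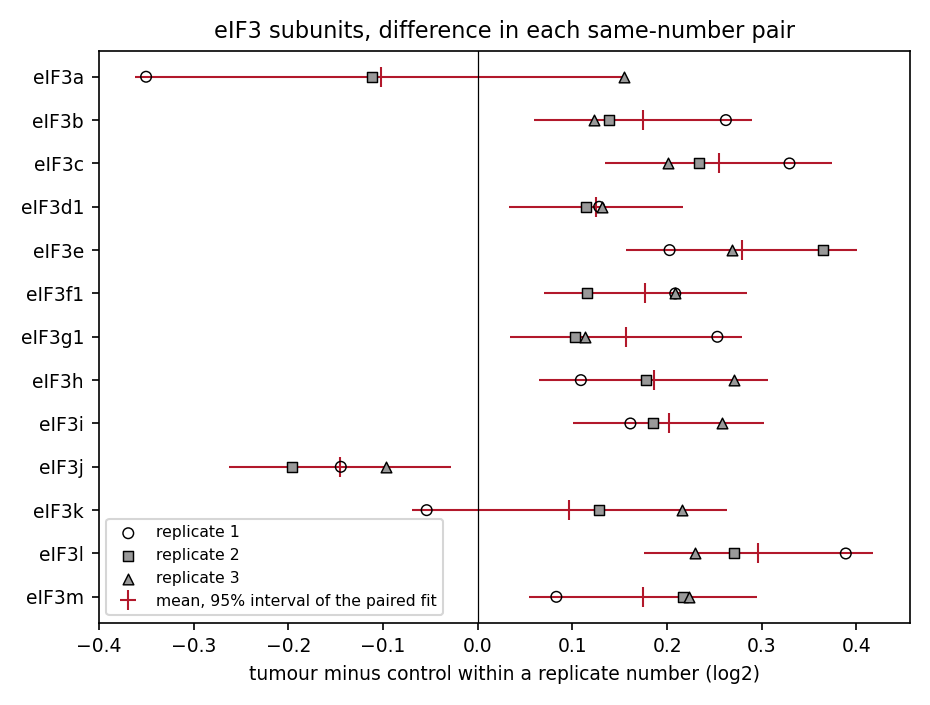
Tumour minus control difference (log2) of the 13 eIF3 subunits within each replicate number (open circle 1, square 2, triangle 3), with the mean and unadjusted 95% interval of the paired fit in red. Of the subunits, 10 have all 3 points right of 0, eIF3j has all 3 left of 0, and eIF3a and eIF3k straddle it.

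The median of the 13 subunits was 0.16, 0.14 and 0.21 in pairs 1, 2 and 3, while all genes had 0.07, 0.02 and 0.06. With an array left out it depended on the replicate 1 arrays, at 0.28 without tumour replicate 1 and 0.06 without control replicate 1. That of the 7962 tested probe sets shifted alongside, to 0.15 and -0.07, so that the eIF3 median exceeded it by 0.11 to 0.14 whichever array was left out. With replicates 2 and 3 alone the eIF3 median was 0.17. That fit called eIF3c, eIF3e, eIF3i and eIF3m (adjusted p = 0.040 for eIF3m), and not eIF3l (adjusted p = 0.087). For comparison, the 34 tested genes of cytoplasmic ribosomal proteins had a median of 0.06, with 25 (73.5%) positive in all 3 pairs and 1 (2.94%) called in the paired fit. No test of the difference between these sets was made. Cell type markers differed between the same arrays, with medians of 0.52 for the 9 eye-antennal disc markers, -0.77 for 2 muscle and myoblast markers and -0.40 for 4 haemocyte markers, and their part in the eIF3 values was not tested.

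Among cap-binding factors the change was in eIF4E3, a paralogue of the cap-binding protein known in Drosophila for its role in spermatogenesis. It had 6.11, 6.25 and 6.28 in tumour, against 6.57, 7.32 and 7.30 in control. All tumour values lay below all control values, and the control array of replicate 1 was the lowest of the controls. The difference was -0.85 ± 0.15 (SE of the paired fit), 1.80-fold lower in tumour (adjusted p = 0.038 paired, 0.32 unpaired). Replicates 2 and 3 alone gave -1.05 (adjusted p = 0.0093), and leaving out any 1 array gave -1.10 to -0.72.

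Markers of other cells were read beside this fall. The germline markers vas, bam and aub lay at 2.17 on all 6 arrays. Salivary gland glue genes were raised on the control arrays of replicates 2 and 3, with Sgs3 at 3.53 and 5.59 and Sgs8 at 4.21 and 5.15, against 2.17 to 2.27 and 2.35 to 2.38 on the tumour arrays, while Sgs4 stayed between 2.20 and 2.25 throughout. The log2 values of these 3 genes added up to 6.71 to 6.85 in tumour and 6.85 to 12.98 in control. Such sums of logs include values at the floor and are not total marker RNA. Fat body genes were raised on control replicate 3 alone, where the log2 values of Fbp1, Fbp2 and Lsp2 added up to 17.58 (8.45 to 8.51 in tumour). Of the 2 measured muscle and myoblast markers TpnC73F was lower in tumour, with a difference of -0.84 (adjusted p = 0.010 paired, 0.045 unpaired), and twi was at -0.70 (adjusted p = 0.060 paired). Their log2 values added up to 15.72 to 16.18 in tumour and 17.1 to 17.86 in control. Of 4 haemocyte markers 0 were called in either fit, and their log2 values added up to 23.66 to 24.90 in tumour and 24.12 to 27.69 in control. The part of these cells in the eIF4E3 values was not tested.

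The ubiquitous cap-binding protein gene eIF4E1 had 12.42, 12.76 and 12.69 in tumour, against 12.37, 12.68 and 12.65 in control. Its difference of 0.06 had an unadjusted 95% interval of -0.04 to 0.16 in the paired fit (adjusted p = 0.33). The related eIF4EHP, a cap-binding repressor of translation, differed by 0.08 on its brighter probe set and 0.01 on its dimmer one (adjusted p = 0.45 and 0.96 paired). The scaffold gene eIF4G1 had 12.95, 13.03 and 13.00 in tumour and 12.87, 13.21 and 13.21 in control. Pair 1 was positive and the other pairs negative, and the mean difference was -0.10 (adjusted p = 0.36 paired). With replicates 2 and 3 alone eIF4G1 was called lower, with a difference of -0.19 (adjusted p = 0.047). Its paralogue eIF4G2, known for its role in male germ cells, had 10.17, 10.46 and 10.40 in tumour and 9.69, 10.82 and 10.38 in control. The control arrays spread most, with an SD of 0.57 against 0.16 in tumour, and the difference was 0.05 (adjusted p = 0.87 paired).

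The helicase gene eIF4A, whose transcript is also read by control probe sets at its 3' end, middle and 5' end, differed by 0.09 (adjusted p = 0.29 paired). Toward the 5' end the control probe sets gave larger differences, 0.09 at the 3' end, 0.18 in the middle and 0.28 at the 5' end, with exact permutation p of 0.4, 0.5 and 0.2 (n = 3, two-sided; the smallest possible is 0.1). The 3'-minus-5' difference of this transcript was 1.71, 1.33 and 1.37 in tumour, against 1.75, 1.73 and 1.49 in control. The genotypes differed in it by -0.19 (exact permutation p = 0.2, n = 3, two-sided). The helicase cofactor gene eIF4B had 3 tested probe sets with differences of 0.01, 0.07 and 0.01, none called.

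None of the factors around eIF2 and subunit joining was called in either fit. The 5 subunits of the exchange factor eIF2B ranged from -0.03 to 0.08, and eIF2beta was at 0.00. The start-codon factor eIF1, the GTPase-activating factor eIF5, the subunit-joining GTPase eIF5B and the large-subunit factor eIF6 lay between -0.06 and -0.01. The largest value of this group was that of eIF2A, a factor linked to alternative initiation, with 12.53, 13.24 and 13.34 in tumour against 12.56, 13.02 and 13.04 in control. Its difference was 0.17 (adjusted p = 0.20 paired), and replicates 2 and 3 alone gave 0.26 and a call (adjusted p = 0.048). The factor eIF2D was at 0.09.

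Of the elongation factors, eEF1alpha2 was higher in tumour discs. This gene encodes a form of eEF1A, the GTPase that brings charged tRNAs to the ribosome. It had 10.28, 10.48 and 10.48 in tumour, against 9.83, 10.01 and 10.21 in control. All tumour values exceeded all control values, by 0.40 ± 0.064 on average (SE of the paired fit), 1.32-fold (adjusted p = 0.030 paired, 0.40 unpaired). Replicates 2 and 3 alone gave 0.37 without a call (adjusted p = 0.067), and leaving out any 1 array gave 0.31 to 0.49. Its probe set carries the _s_at suffix, which Affymetrix gives to probes that can match transcripts of more than 1 gene, so RNA of a near-identical copy may enter the value.

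Beside the rise of eEF1alpha2, markers of eye tissue also differed in the paired fit. It called 6 of the 9 measured eye-antennal disc markers higher and 1, Dll, lower, against 4.06% higher and 5.38% lower among all genes. The unpaired fit called 0 of the 9. The neuron marker elav was at 0.52 (adjusted p = 0.014 paired, 0.28 unpaired). The log2 values of the 9 added up to 99.82 to 102.89 in tumour and 95.30 to 98.83 in control. The part of cell composition in the eEF1alpha2 value was not tested.

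The selenocysteine-specific factor eEFSec had the larger difference, 0.49, with 4.92, 4.94 and 4.98 in tumour, against 3.85, 4.60 and 4.93 in control. The control arrays spread over more than 1 log2 unit near the filter, the pairs gave 1.07, 0.33 and 0.06, and the gene was not called (adjusted p = 0.21 paired, 0.83 unpaired). The subunits of the eEF1A exchange factor and the hypusine-carrying eEF5, also known as eIF5A, were not called. Their differences were -0.05 for eEF1delta, 0.01 for eEF1gamma and 0.04 for eEF5. Unadjusted 95% intervals of the paired fit lay between -0.14 and 0.13, and unpaired ones were wider (-0.40 to 0.41 for eEF1gamma).

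**Figure D4:**
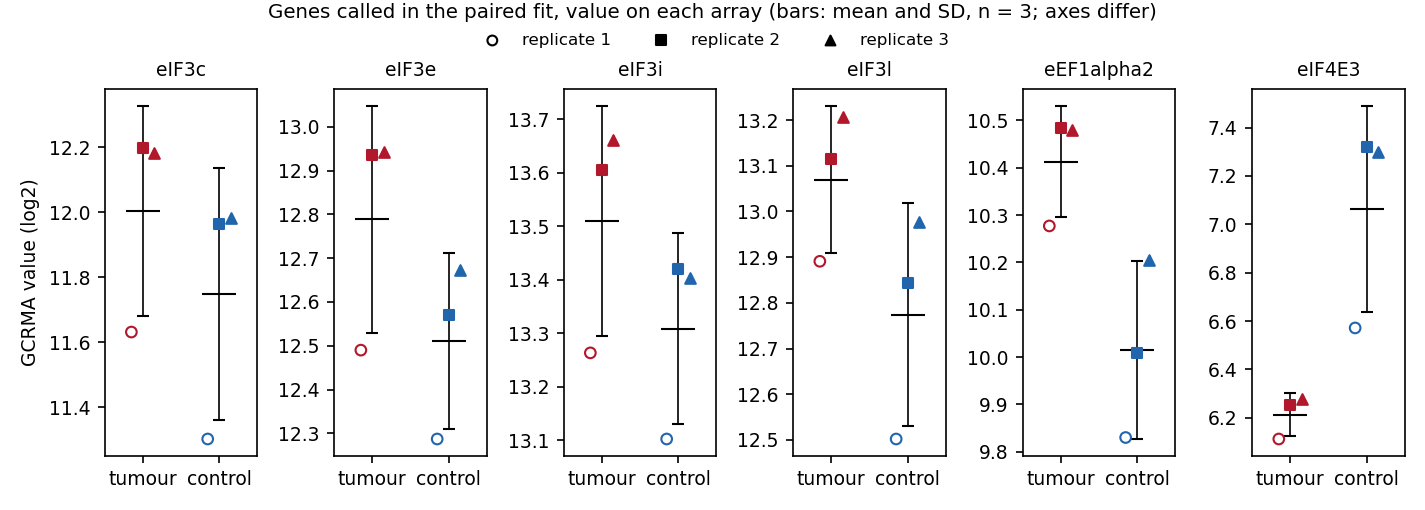
GCRMA value (log2) on each array for the 6 genes called in the paired fit, tumour left of control, with mean and SD (n = 3) and a separate axis per gene. The replicate 1 arrays (open circles) are the lowest of each genotype in all 6 panels, and only eEF1alpha2 and eIF4E3 have genotypes that do not overlap.

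Cytosolic synthetases were the class with the narrowest range, from -0.13 for GlyRS to 0.13 for LeuRS, and 0 of 16 were called (lowest adjusted p = 0.11 paired, 1 unpaired, none with an unadjusted p under 0.05 in the unpaired fit). GlyRS had 11.35, 12.00 and 11.95 in tumour, against 11.47, 12.14 and 12.09 in control, and was lower by 0.12 to 0.14 in each pair. The AlaRS and SerRS genes, at -0.11 and -0.10, were also negative in each pair, as were 7 of the 16 in all (20.6% of all genes). LeuRS had 9.47, 10.02 and 10.10 in tumour and 9.44, 9.86 and 9.88 in control. The next positive values were those of IleRS, 0.10, and GluProRS, which charges the tRNAs of both glutamate and proline, 0.05. The unadjusted 95% intervals of the 16 genes in the paired fit lay between -0.26 and 0.30, or 1.20-fold down to 1.23-fold up. That range depends on the pairing, which the labels do not state. In the unpaired fit the intervals were wider, with -0.84 to 0.63 for AlaRS and -0.39 to 0.66 for LeuRS.

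The cytosolic median of -0.04 was nearly equal in pairs 1, 2 and 3, at -0.04 in each, but its sign depended on the arrays used, at 0.09 without tumour replicate 1, 0.02 without control replicate 2 and 0.05 without control replicate 3. It lay below the median of all tested probe sets by 0.06 to 0.09 whichever array was left out. For TrpRS the brighter tested probe sets gave -0.06 and -0.03, and the third lay below the filter, at 2.80, 3.25 and 3.51 in tumour, against 2.80, 2.80 and 2.82 in control.

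Mitochondrial synthetases varied more, from -0.19 for ProRS-m to 0.26 for ValRS-m, and 0 of 14 were called (lowest adjusted p = 0.19 paired, 0.87 unpaired, none with an unadjusted p under 0.05 in either fit). ValRS-m had 5.93, 6.90 and 6.75 in tumour, against 5.50, 6.67 and 6.63 in control, so that the groups overlapped while each pair was positive. PheRS-m had 8.35, 8.0 and 8.33 in tumour and 7.99, 8.03 and 7.96 in control, a difference of 0.24 carried by pairs 1 and 3. AsnRS-m, at 0.19, was likewise positive in pairs 1 and 3 and negative in pair 2. ProRS-m had 6.89, 7.38 and 7.37 in tumour, against 7.12, 7.51 and 7.56 in control, and was the only one of the 14 that was negative in all 3 pairs. IleRS-m and CysRS-m lay next lowest, both at -0.01, with pairs of either sign.

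The precision was lower in this class. The median SE of the paired fit was 0.107 log2 for mitochondrial and 0.057 for cytosolic synthetases, beside 0.083 for all genes, and the 95% intervals of the mitochondrial enzymes reached from -0.43 to 0.80. The widest of these paired intervals, that of TyrRS-m, reached up to 1.74-fold, and its unpaired interval was wider, at -0.84 to 1.21. The median of the class was 0.10, 0.01 and 0.04 in pairs 1, 2 and 3. It turned negative without control replicate 1 (-0.11) and without tumour replicate 3 (-0.04), and all genes moved with it.

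Other genes of translation were read from 7 lists with 54 entries, 43 of them tested. The unpaired fit called 0 in limma (3 with an unadjusted p under 0.05), and the paired fit called 2 higher and 1 lower, 6.98%, below the 9.45% of all genes. Of 9 tested mitochondrial translation factors mIF2, which initiates translation in mitochondria, was higher by 0.54 (adjusted p = 0.041 paired, 0.90 unpaired). It had 6.07, 6.91 and 6.93 in tumour, against 5.44, 6.37 and 6.49 in control, and the list median was 0.03. The value of mIF2 was 0.30 as the mean of its 2 probe sets, 0.21 without control replicate 1 and 0.82 without tumour replicate 1, and replicates 2 and 3 alone gave no call (adjusted p = 0.055). In a list of cap-binding partners and TOR control, 13 tested, the kinase gene S6kII was higher by 0.39 (adjusted p = 0.041 paired, 0.47 unpaired). It had 8.68, 8.87 and 8.76 in tumour and 8.24, 8.55 and 8.34 in control. S6k, a separate gene of that list, was at 0.01 (adjusted p = 0.98 paired). All tumour values of S6kII exceeded the control values, and replicates 2 and 3 alone gave no call (adjusted p = 0.10).

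In a list of eIF2 kinases and stress response genes, 5 tested, the stress gene Gadd45 was the 1 called, and neither eIF2 kinase gene was. It was lower in tumour, with a difference of -1.27 (adjusted p = 0.047 paired, 0.42 unpaired), with 6.08, 6.09 and 6.65 in tumour, against 6.64, 7.88 and 8.10 in control. Its high control arrays, replicates 2 and 3, were those with raised Sgs3 and Sgs8, and control replicate 3 had raised fat body genes; the part of these cells in the Gadd45 values was not tested. The eIF2 kinase genes Gcn2 and PEK and the transcription factor gene crc, the fly ATF4, lay at 0.08, 0.12 and 0.16 in the same list. PPP1R15 was at 0.03, and none of these was called. Termination and recycling factors (4 tested, -0.12 to 0.08), reinitiation factors (3 tested, -0.19 to 0.21), scaffold proteins of the synthetase complex (3 tested, -0.07 to -0.03) and enzymes of diphthamide and hypusine (6 tested, -0.16 to 0.11) had no called gene in either fit.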

How the data were processed

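The deposited values are log2 intensities of 18952 probe sets on 6 one-colour Affymetrix arrays, 3 per genotype, made by the authors with GCRMA per the submitters' processing notes, of a version not given in the sources here. It corrects background by probe sequence, normalizes and summarises probes. The log2 scale was read from the values (2.17 to 15.79), and differences next to its low end say little. Per the labels' protocols 15 ug of cRNA was hybridised per array. The 183 control probe sets were set apart. Of 18769 others, platform annotation gave 1 gene for 13647, updated through NCBI's Release 6 table where the gene ID matched.

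Probe sets with a log2 value of at least 4 on at least 3 arrays (7962 probe sets, 6447 genes) were fitted with limma 3.58.1 in R 4.3.3 (lmFit, eBayes with trend), with Benjamini-Hochberg adjustment over all of them, two-sided. The unpaired fit, without covariates, is the main one; the paired fit has the replicate number as a block. The labels do not state a pairing. Same-number arrays correlated in their deviations from the genotype means (0.794, 0.467 and 0.723), but tumour 2 with control 3 (0.668) and tumour 3 with control 2 (0.473) exceeded the 2 with 2 value, so the block mainly separates replicate 1 from the others. The labels name biological replicates; p-values rest on how these disc pools varied. The number of arrays limits the precision. Fits were tested on simulated data with replicate effects shared by same-number arrays. Changes of 0.25 log2 were called in 0% of cases by the unpaired fit and 2% by the paired fit. For changes of 0.5 log2 these shares were 0.4% and 35.6%, so a gene without a call may still differ by such amounts.

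Members, lists and fits were chosen with earlier results of these data known. Genes named are those called in either fit, the 3 highest and 3 lowest of each class, the eEF1alpha, eIF4E and eIF4G families, members not tested, and called genes of the other lists; eIF3, eIF2A, eIF2B, eIF4A, eIF4B and other factors were named after their values were seen. Alternatives left out each array, used replicates 2 and 3 alone, changed the filter, the normalization, the variance trend or the probe-set rule.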

Additional observations from a re-analysis of the deposited data

How the results depend on the processing

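With the replicate block the count of translation genes called was 6 and with replicates 2 and 3 alone it was 7, 4 of them shared, against 0 in the unpaired fit; every other alternative gave 0. Quantile normalization and centring lowered the adjusted p of the unpaired limma fit. In that order it was 0.051 and 0.053 for eIF4E3, 0.060 and 0.094 for eIF3l, and 0.074 and 0.16 for eIF3e. It was 0.079 and 0.11 for eEF1alpha2, 0.26 and 0.19 for eIF3i, and 0.50 and 0.49 for eIF3c. For the other translation genes these counts were 3 and 1, with 1 under quantile normalization, against 0. Over all probe sets the unpaired fit called 41 (16 higher, 25 lower), the replicate block 730 (329 and 401), replicates 2 and 3 alone 550 (237 and 313), quantile normalization 213 (68 and 145), centring on the tested median 176 (55 and 121), and no filter 2 (both lower). Leaving out 1 array gave 0 to 19 (19 with tumour replicate 1 left out, 11 with control replicate 1 and 3 with tumour replicate 3 left out, and 0 for each of the others) and 0 translation genes.

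Class medians moved by more than their spread between pairs as follows. The initiation median of 0.07 was 0.0156 without a filter, where floor-level paralogues enter, and -0.0266 to 0.16 with 1 array left out. The elongation median was 0.0066 under quantile normalization and 0.0023 to 0.11 with 1 array left out. The cytosolic synthetase median was -0.0137 with replicates 2 and 3 alone, -0.0624 under quantile normalization, -0.0656 with centring and -0.14 to 0.0934 with 1 array left out. The mitochondrial synthetase median was -0.11 to 0.20 and the eIF3 median, added after seeing the data, 0.0633 to 0.28 with 1 array left out. In these runs the median of all tested probe sets moved too. Minus that median, the ranges were -0.018 to 0.048 for initiation, -0.044 to 0.077 for elongation and -0.093 to -0.059 for cytosolic synthetases. They were -0.039 to 0.041 for mitochondrial synthetases and 0.11 to 0.14 for eIF3.

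Small differences changed sign in some settings, and none of these genes was called there. With replicates 2 and 3 alone GluProRS was -0.0013, IleRS-m 0.0621, eEF1gamma -0.027, eIF3a 0.0214 and eIF4G2 -0.17, and eEF1gamma was -0.0065 under quantile normalization and -0.0231 with centring. With 1 array left out the ranges that crossed 0 were AlaRS -0.34 to 0.17, CysRS-m -0.26 to 0.22, GluProRS -0.13 to 0.17, GlyRS -0.35 to 0.0729, IleRS -0.0226 to 0.18, IleRS-m -0.39 to 0.43, LeuRS -0.01 to 0.33, SerRS -0.23 to 0.047, ValRS-m -0.12 to 0.56, eEF1delta -0.0965 to 0.0238, eEF1gamma -0.13 to 0.11, eIF3a -0.34 to 0.26, eIF4E1 -0.0384 to 0.16, eIF4EHP -0.0015 to 0.16 and eIF4G2 -0.26 to 0.31. The median of all tested probe sets also changed sign with 1 array left out, at 0.15 without tumour replicate 1 and -0.07 without control replicate 1. Its part in the sign changes of these genes was not tested. The 6 genes called in the paired fit kept their direction in every alternative run.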
